A study of Mus musculus with 6 samples.

Results

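Synucleins are small proteins of nerve endings that attach to the membranes of synaptic vesicles. Sncb encodes beta-synuclein, which is abundant in neurons of the cerebral cortex and slows the clumping of its relatives. Sncg encodes gamma-synuclein, which is best known from peripheral sensory and motor neurons and from retinal ganglion cells, and which in the cortex marks a small subclass of interneurons. The family described here was these 2 genes, taken by Ensembl identifier from the 21006 genes with a value. The study had also picked Sncg out of the sequencing results of these same animals, so its difference between the groups here is not independent evidence.

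The animals were aged male wild type C57BL/6 mice, 18 months old per the age label although the sample titles carry another, lower number that may stand for months, and the tissue was the prefrontal cortex. The PND group (postoperative neurocognitive disorder, n = 3) had isoflurane anesthesia and an exploratory laparotomy, in which the abdomen is opened and its organs are inspected. The CON group (n = 3) had neither the anesthetic nor the operation, so the effects of the drug and of the surgery cannot be told apart. All animals had been tested in an open field, a fear conditioning chamber and a Barnes maze before the brain was taken under deep isoflurane, also in CON. Each sample came from 1 animal, picked at random from a larger group.

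The values were FPKM, in which fragments are divided by exon length and by depth, so they can be compared between genes. Steps in the low values put the effective depth, which includes any scaling by the authors, at an estimated 7178751 to 9385265 fragments per sample. The tissue label was set against marker genes. The summed level of 10 markers of cortical glutamatergic neurons was 230 to 270 FPKM in PND and 213 to 336 FPKM in CON, whereas that of 10 choroid plexus genes did not exceed 3.98 FPKM in any sample. Markers of striatal neurons, which lie outside the cortex, stood at a similar level, with a sum over 8 genes of 200 to 252 FPKM in PND and 132 to 335 FPKM in CON. Some of these genes are also expressed in the cortex, and whether striatal tissue was included was not tested. In bulk tissue, fewer cells of a type and less RNA per cell cannot be told apart.

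Both genes are protein-coding and lie on the minus strand, Sncb (ENSMUSG00000034891) on chromosome 13 from 54758860 to 54766595 and Sncg (ENSMUSG00000023064) on chromosome 14 from 34370274 to 34374789 in GRCm38. In GENCODE M21 Sncb had 7 exons and Sncg had 5 after overlapping exons were merged, and no other annotated gene overlapped either of them. As the genes are relatives and differ widely in level, it was checked whether reads of one could be counted for the other. The first 120 coding bases of each are shown because this is the part that the family shares most. Capitals mark the bases that are the same in both genes, and positions run from the A of the start codon.

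Sncb: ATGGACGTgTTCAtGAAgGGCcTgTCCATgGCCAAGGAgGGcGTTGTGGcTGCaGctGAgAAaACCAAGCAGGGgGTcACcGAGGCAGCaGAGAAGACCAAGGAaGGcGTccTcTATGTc

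Sncg: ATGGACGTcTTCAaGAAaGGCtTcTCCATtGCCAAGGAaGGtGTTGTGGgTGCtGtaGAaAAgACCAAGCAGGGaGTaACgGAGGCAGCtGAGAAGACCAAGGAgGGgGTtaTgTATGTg

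Of these 120 bases, 96 were the same, and over the whole coding sequence 256 of 364 aligned bases (70.3%) were. The differences were scattered, so the longest run of letters shared by both transcripts was 16 bases. No stretch of 31 bases of the transcripts read for this, Sncb-201 (1351 bases) and Sncg-201 (852 bases), occurred in a transcript of any other gene. The merged exons of Sncb span 2145 bases, and those outside Sncb-201 were not checked.

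Sncb did not differ between the groups beyond the spread of the animals. Its level was 19.9, 15.4 and 25.7 FPKM in PND replicates 1 to 3 and 15.3, 27.3 and 16.8 FPKM in CON replicates 1 to 3. The highest value of all lay in CON and so did the lowest, and every PND value fell between them. The mean was 20.3 ± 5.17 FPKM for PND and 19.8 ± 6.50 FPKM for CON (SD, n = 3). The log2 fold change, taken as PND minus CON on log2(FPKM + 0.1), was 0.06 (SE 0.26), with an adjusted p of 0.9999 in limma. Its 95% interval ran from -0.56 to 0.67, so a moderate change in either direction was not detectable with these animals. An exact two-sided permutation test on the FPKM gave p = 0.9.

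The spread of Sncb was larger than counting error. The estimate was 246 to 518 fragments per sample, and the 95% Poisson interval was 24.9 to 29.8 FPKM in CON replicate 2 and 13.5 to 17.4 FPKM in CON replicate 1. These intervals of 2 control animals did not meet, although neither animal was treated. Such intervals cover counting error only.

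**Figure D1:**
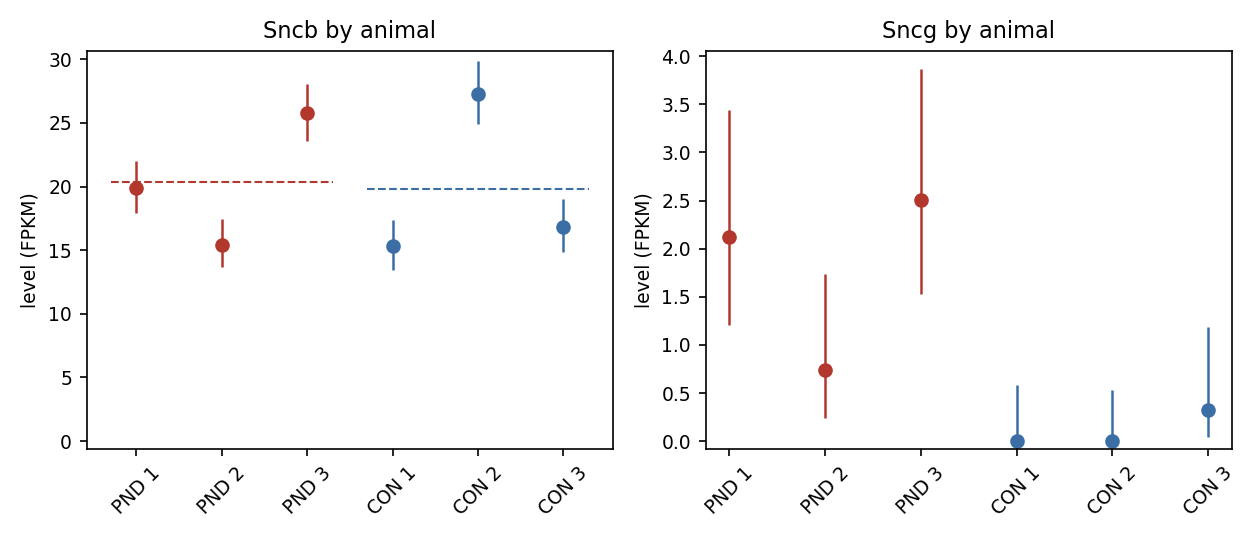
Level (FPKM) of Sncb and Sncg in each of the 3 PND and 3 CON animals. Points are the values, vertical bars are 95% Poisson intervals of the estimated fragments and dashed lines are group means, drawn for Sncb only. The Sncb values of the groups are interleaved between 15.3 and 27.3, while the Sncg values of PND, 0.742 to 2.50, all lie above those of CON, 0 to 0.326.

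Sncg was higher in PND in all 3 animals. Its level was 2.12, 0.742 and 2.50 FPKM in PND replicates 1 to 3. Of the CON animals, replicate 3 had 0.326 FPKM and the other pair were listed at 0. The groups did not overlap, although PND replicate 2 and CON replicate 3 lay closest, and a PND level above every CON level was found for 3.78% of all genes tested. The mean in PND was 1.79 ± 0.926 FPKM (SD, n = 3), a coefficient of variation of 51.8%.

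These levels rested on few fragments. Sncg held an estimated 16, 5 and 20 fragments in the PND samples and 0, 0 and 2 in the CON samples, each within 0.05 of a whole number. By the one-sided rule of 3 fragments, a listed 0 allows up to 0.471 FPKM in CON replicate 1 and 0.432 FPKM in CON replicate 2, and the two-sided 95% Poisson limits drawn in the plot by animal are 0.579 and 0.531 FPKM. The Poisson interval of PND replicate 2 (0.241 to 1.73 FPKM) overlapped those of all 3 CON animals, including CON replicate 3 (0.0396 to 1.18 FPKM), whereas the intervals of PND replicates 1 and 3 began at 1.21 and 1.53 FPKM. Summed over animals, 41 fragments in PND and 2 in CON gave a ratio of 17.9 at equal depth, with an exact 95% counting interval of 4.64 to 153 that leaves out the variation between animals.

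In the limma fit over 18185 genes, Sncg differed by 3.39 on the log2 scale (SE 0.69, unadjusted p 0.00156, adjusted p 0.787), and its 95% interval ran from 1.76 to 5.01. It passed the study's cut-off (absolute log2 fold change above 1 and unadjusted p below 0.05) and was 1 of 2 family members to do so, against 0.841% of all genes tested that passed it in the upward direction. Among the 4639 genes with a mean level of 0.5 to 2 FPKM, where Sncg lies, this share was 0.819%. By unadjusted p Sncg ranked 36 of all genes tested, and it did not pass after Benjamini-Hochberg adjustment, which 0.011% of all genes did. The exact permutation test on the FPKM gave p = 0.1, two-sided, which is the smallest p that 3 against 3 animals allow. The size of the fitted change depended on the constant added before the logarithm, and with 1 FPKM in place of 0.1 FPKM the log2 fold change was 1.28 (unadjusted p 0.0018, adjusted p 0.9999).

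The genes differed in level as well. Sncb had a higher mean level than 92.3% of all genes and Sncg than 40.2%. As a share of the Sncb level in the same animal, Sncg stood at 10.7%, 4.81% and 9.72% in PND, at 1.94% in CON replicate 3 and at 0 in the other CON animals. The log2 ratio of Sncg to Sncb was -3.56 ± 0.56 in PND and -6.89 ± 1.43 in CON (SD, n = 3), and the difference of 3.33 had an exact two-sided permutation p of 0.1. Since a pair of CON animals stood at 0, its size depended on the pseudocount, and it was 1.80 with 0.5 FPKM and 1.23 with 1 FPKM. Sncg lay below Sncb in every animal of both groups, so the order of the family by level was the same throughout.

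Base composition moved with Sncb across animals. The GC content of the longest Sncb transcript was 61.4%, above that of 98.0% of the genes tested, and that of Sncg was 56.6%, above 87.4%. The genes of the top GC decile (1233 genes, at least 56.6% GC, among those with a mean of 1 FPKM or more) deviated from their own means by a median of 0.49 in CON replicate 2 and -0.56 in CON replicate 1 on the log2 scale. Sncb deviated by 0.48 and -0.35 in the same animals. Sorted from high to low, the 6 animals stood in the same order for Sncb and for these genes, which was CON 2, PND 3, PND 1, CON 3, PND 2 and CON 1.

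After the trend with GC content was removed within each sample, Sncb ranged over 0.53 on the log2 scale instead of 0.83. The SD within PND went from 0.37 to 0.06 and that within CON from 0.44 to 0.29. The difference between the groups was then -0.05 (SE 0.15, unadjusted p 0.736, adjusted p 0.9997 in limma), with a sign opposite to the value above. CON replicate 1, the lowest animal before, was the highest after this step. For Sncg the SD within PND went from 0.88 to 0.61 and that within CON from 1.21 to 1.28. It was at 0 both in CON replicate 2, where the top GC decile stood highest, and in CON replicate 1, where it stood lowest. The group difference of Sncg with the correction was 3.30 (SE 0.65, unadjusted p 0.00133, adjusted p 0.665). In PND, however, its order (PND 3, PND 1, PND 2) was that of the GC-rich genes and of Sncb.

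**Figure D2:**
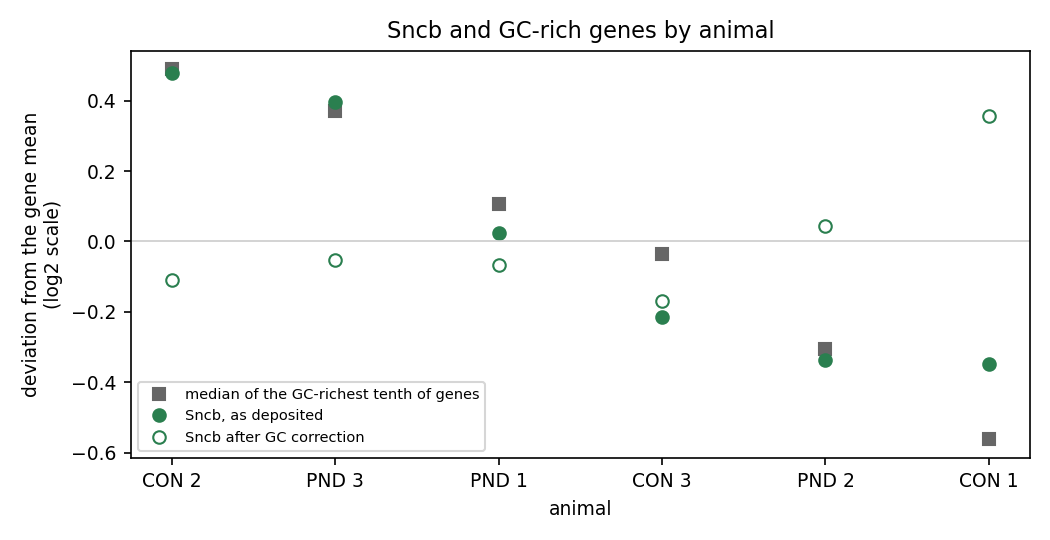
Deviation from the gene mean (log2 scale) in each animal, for the median of the top GC decile (squares) and for Sncb before (filled circles) and after (open circles) GC correction. The animals are sorted by the GC-rich genes, from CON 2 at 0.49 to CON 1 at -0.56, and the uncorrected Sncb values descend in the same order.

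The partners of synucleins at the nerve ending were looked at next. The list held 16 genes of vesicle fusion and of its chaperones, and all 16 were tested. None of the 16 passed the cut-off or had an unadjusted p below 0.05 in limma, against 1.33% and 3.13% of all genes tested. The log2 fold changes were positive for 9 and negative for 7, between -0.20 and 0.51, with a median of 0.09 beside 0.01 over all genes. The smallest unadjusted p (0.132, adjusted p 0.9999) belonged to Dnajc5, the vesicle chaperone cysteine-string protein, with 15.5 ± 1.64 FPKM in PND and 11.5 ± 4.44 FPKM in CON. Vamp2, the vesicle SNARE protein, had 140 ± 18.7 against 123 ± 18.0 FPKM, a difference smaller than the spread in either group. The summed level of the list was 1471 to 1594 FPKM in PND and 1446 to 1623 FPKM in CON, so the PND range lay inside the CON range.

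A second list held 17 enzymes and lysosomal proteins that add or remove phosphate or ubiquitin on synucleins, or that cleave or degrade them. Whether each acts on the products of Sncb or Sncg was not tested. All 17 were tested and 0 passed the cut-off, while 1 had an unadjusted p below 0.05, as had 3.13% of all genes tested. This was Ctsb, the lysosomal protease cathepsin B, with 52.1, 46.3 and 57.2 FPKM in PND and 36.2, 48.2 and 37.4 FPKM in CON. It differed by 0.36 on the log2 scale (SE 0.14, unadjusted p 0.0391, adjusted p 0.9999), and the groups overlapped through PND replicate 2 and CON replicate 2. Nedd4, a ubiquitin ligase, followed with 40.5 ± 7.91 against 48.7 ± 8.07 FPKM (unadjusted p 0.179, adjusted p 0.9999). Plk2, a kinase that phosphorylates synucleins, had a log2 fold change of -0.13 (SE 0.12).

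Cells that carry Sncg were followed through other genes they express. For the cortical interneuron subclass named after Sncg, 11 of 12 listed genes were tested, 6 with positive and 5 with negative log2 fold changes and a median of 0.09. Of the 11, Krt73, a keratin gene used as a marker of these cells, passed the cut-off, as did 0.841% of all genes in the upward direction. It stood at 0.470, 0.759 and 0.295 FPKM in PND and at 0.308, 0 and 0 FPKM in CON, so that PND replicate 3 lay below CON replicate 1. The difference was 1.86 on the log2 scale (SE 0.65, unadjusted p 0.0226, adjusted p 0.9999). It no longer passed with a pseudocount of 0.5 or 1 FPKM (log2 fold change 0.76 and 0.45) or when any 1 of 4 animals was left out. Itih5, which encodes a matrix protein and is expressed by other cells too, had 11.0 ± 1.24 against 7.98 ± 0.805 FPKM with groups that did not overlap (log2 fold change 0.45, SE 0.14, unadjusted p 0.0135, adjusted p 0.9999). Adarb2, an RNA-binding protein gene of the same interneurons, also had groups that did not overlap, but PND (2.73, 2.94 and 3.09 FPKM) lay below CON (3.21, 3.22 and 3.23 FPKM). Over all genes tested, PND lay above CON without overlap in 3.78% and below it in 3.88%.

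Cck, Cnr1 and Vip, the most abundant genes of this list, did not share the pattern of Sncg, whereas PND lay above CON for Itih5, the next in level. Vip, the vasoactive intestinal peptide, stood at 22.7, 19.0 and 23.4 FPKM in PND and 22.1, 25.6 and 18.0 FPKM in CON. Cnr1, a cannabinoid receptor, had a log2 fold change of -0.09 (SE 0.11), and Cck, another peptide, one of 0.09 (SE 0.41). Bulk levels do not show which cells this RNA came from, so they do not give the state of the subclass itself. The summed level of the 12 genes overlapped between the groups, at 82.1 to 103 FPKM in PND and 80.0 to 115 FPKM in CON.

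Neurons outside the cortex also use Sncg, so their markers were examined as well. For cholinergic neurons of the basal forebrain, 6 of 8 genes were tested, and all 6 had positive log2 fold changes, from 0.38 to 1.05, of which 0 passed the cut-off. Their median was 0.82, beside 0.01 over all genes. Lhx8, a transcription factor of these neurons, stood at 0.801, 0.512 and 0.782 FPKM in PND and at 0.507, 0.0621 and 0.458 FPKM in CON (unadjusted p 0.0938, adjusted p 0.9999). Gbx1, another of their transcription factors, had an unadjusted p of 0.106 (adjusted p 0.9999). The summed level of the 8 genes was 8.43 to 9.76 FPKM in PND. In CON it was 5.82 FPKM in replicate 1, 2.34 FPKM in replicate 2 and 9.98 FPKM in replicate 3, so the summed levels of the groups overlapped, whereas for Lhx8 alone they did not. This sum was lowest in CON replicate 2 and highest in CON replicate 3, the one CON sample with Sncg fragments. Within PND the order differed, as the sum was highest in replicate 2 (9.76 FPKM), where Sncg was lowest (0.742 FPKM). Single genes of the list did not all follow the sum, and Lhx8 was lower in CON replicate 3 than in CON replicate 1. For 8 striatal genes the summed level had the same order in CON, at 224, 132 and 335 FPKM in replicates 1 to 3, and was 200 to 252 FPKM in PND. The part of these neurons in the Sncg difference was not tested.

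For monoaminergic neurons 2 of 10 listed genes were tested, Ddc and Slc18a2, and 0 passed. Ddc, the decarboxylase that makes dopamine and serotonin, had 1.42 ± 0.485 against 0.821 ± 0.171 FPKM (unadjusted p 0.0700, adjusted p 0.9999), and Slc18a2, the vesicle transporter, had 0.107 ± 0.110 against 0.153 ± 0.0775 FPKM. Tph2 was at most 0.238 FPKM and Slc6a3 at most 0.154 FPKM. The summed level of the 5 genes with values was 1.34 to 2.15 FPKM in PND and 0.981 to 1.24 FPKM in CON, which did not overlap. Ddc held the largest part of this sum, and its own groups overlapped, with 0.897 FPKM in PND replicate 2 and 0.922 FPKM in CON replicate 1. The rest of the sum came from genes near the floor. Of single genes tested, 3.78% had a PND level above every CON level. The part of these neurons in the Sncg difference was not tested. For peripheral sensory neurons 2 of 8 genes were tested, Scn10a and Prph, and 0 passed. The summed level of the 5 sensory genes with values was 0.484 to 0.583 FPKM in PND and 0.265 to 0.653 FPKM in CON, with Avil at most 0.0970 FPKM.

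Markers of neighbouring tissue were compared in the same way. All 5 choroid plexus genes tested, of 11 listed, had positive log2 fold changes with a median of 0.53. Sostdc1 passed the cut-off with 0.284 ± 0.0234 FPKM in PND and values of 0.0762, 0 and 0.0794 FPKM in CON (log2 fold change 1.38, unadjusted p 0.0119, adjusted p 0.9999), a direction in which 0.841% of all genes passed. With a pseudocount of 0.5 or 1 FPKM its log2 fold change was 0.51 and 0.29, under the cut-off. Clic6 had 1.84 ± 0.319 against 1.05 ± 0.399 FPKM (unadjusted p 0.0319, adjusted p 0.9999). The summed level of the list was 3.35 to 3.98 FPKM in PND and 1.54 to 3.14 FPKM in CON, so it separated the groups as Sncg did, while Ttr, the most abundant gene of that tissue, was at most 0.207 FPKM. Whether such tissue had a part in the Sncg difference was likewise not tested. Of the genes of hypothalamus and septum, 6 of 13 were tested and 0 passed, with a median log2 fold change of 0.03 and the smallest p-values for Nkx2-1 (unadjusted p 0.0673, adjusted p 0.9999) and Trh (unadjusted p 0.150, adjusted p 0.9999), which the study had picked from these animals. The 8 striatal genes were all tested, 0 passed, and their median was 0.10. Ppp1r1b and Adora2a led them with unadjusted p-values of 0.477 and 0.668 (adjusted p 0.9999 for both).

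The main cell classes of the cortex were described by 44 further genes, all tested, of which 0 passed the cut-off. Their medians were -0.07 for glutamatergic neurons, 0.17 for GABAergic neurons, 0.00 for astrocytes, -0.16 for oligodendrocytes, 0.01 for microglia and 0.06 for endothelial and mural cells. Gfap of astrocytes had an unadjusted p below 0.05 in the upward direction (log2 fold change 0.66), as did 1.73% of all genes tested. Aqp4 of astrocytes (-0.36) and P2ry12 of microglia (-0.76) had one in the downward direction, as did 1.4% of all genes. The groups did not overlap for these 3 genes, and PND lay below CON in 3.88% of all genes. Among the genes that did not reach this threshold were Bcl11b of deep-layer neurons (0.22), Slc32a1 of GABAergic neurons (0.28), Mog of myelin (-0.36), Tmem119 of microglia (0.52) and Acta2 and Pecam1 of vessels (0.72 and 0.29). The summed level was 40.2 to 44.6 FPKM in PND and 44.1 to 49.4 FPKM in CON for the microglial list, and the sums of the other classes overlapped too.

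**Figure D3:**
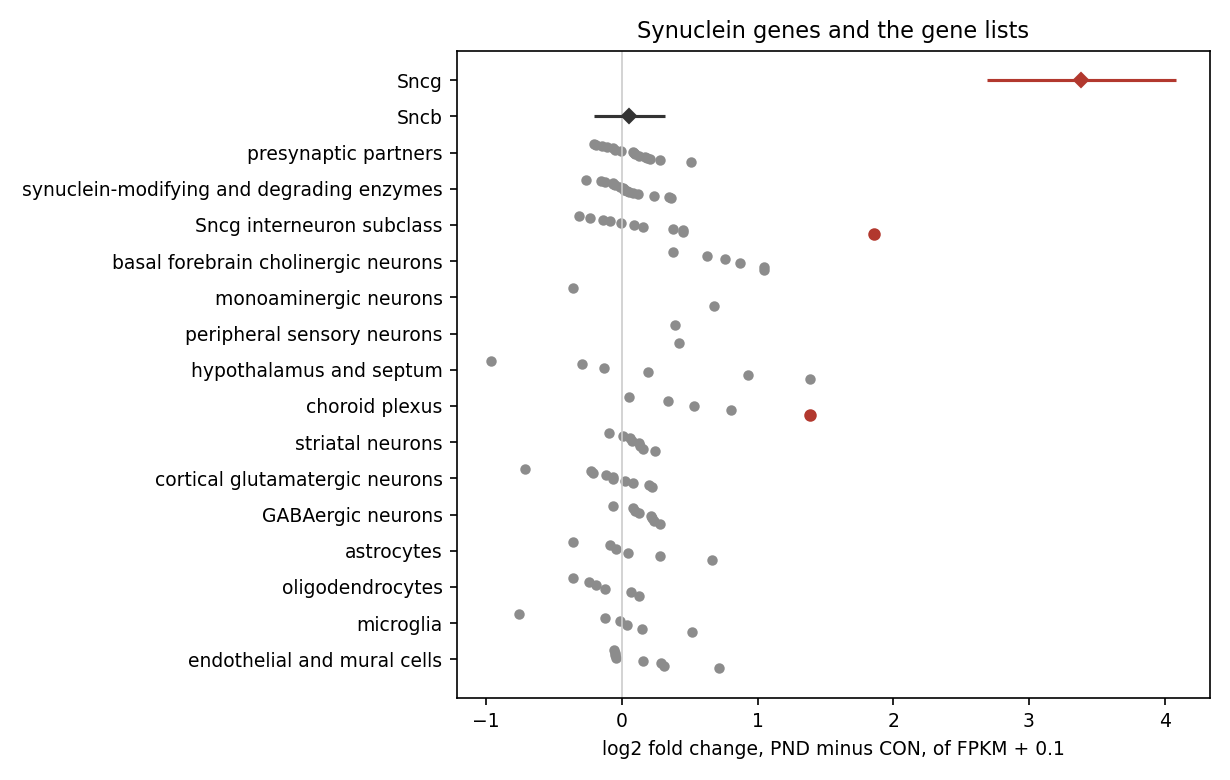
Log2 fold changes (PND minus CON, of FPKM + 0.1) of Sncg and Sncb, with bars of 1 SE, and of the genes tested in each list, 1 point a gene. Red points passed the cut-off. Sncg at 3.39 lies to the right of every list gene, the farthest of which is Krt73 at 1.86, and Sncb at 0.06 lies among the presynaptic partners.

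The genes next to each synuclein were then read for changes along the chromosome. The closest neighbour of Sncg was Mmrn2, which encodes an endothelial matrix protein and starts 675 bases away on the opposite strand. It stood at 0.661, 0.450 and 0.893 FPKM in PND and at 0.475, 0.405 and 0.389 FPKM in CON. PND replicates 3 and 1 were highest for Mmrn2 as for Sncg, but PND replicate 2 lay below CON replicate 1, and the log2 fold change was 0.52 (SE 0.32, unadjusted p 0.151, adjusted p 0.9999). The other 5 neighbours were Glud1, Shld2, Syt15, Bmpr1a and Ldb3. Syt15 was below the filter, and the log2 fold changes of the others lay between -0.10 for Bmpr1a and 0.27 for Ldb3, with groups that overlapped.

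Around Sncb the nearest genes were Gprin1, Cdhr2 and Rnf44 on one side and Tspan17, 5330429C05Rik and Unc5a on the other. In the fit reported here 0 of them passed the cut-off, and Cdhr2 and 5330429C05Rik were below the filter. Gprin1, a protein of growing neurites that lies 8985 bases from Sncb, varied most. It stood at 0.674, 0.332 and 11.7 FPKM in PND and at 7.38, 12.3 and 7.11 FPKM in CON, so PND replicates 1 and 2 lay far below the remaining 4 animals (log2 fold change -2.47, SE 1.11, unadjusted p 0.0597, adjusted p 0.9999). Gprin1 passed the cut-off in 5 of 18 alternatives, namely median centring, voom, GC correction with and without the replicate block, and without PND replicate 3. Leaving out 1 animal put its log2 fold change between -3.92 (without PND replicate 3) and -1.53 (without PND replicate 2). The Sncb values of these PND animals, 19.9 and 15.4 FPKM, did not follow it. For Unc5a, a netrin receptor, PND replicate 3 and CON replicate 2 were highest, as they were for Sncb.

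Genes whose levels varied most like those of each synuclein were found by Pearson's r over the 6 animals, among 12322 further genes for Sncb and 12323 for Sncg whose mean reached 1 FPKM. The points share libraries and base composition, and no p is given. For Sncb, 924 genes (7.50%) had an r above 0.9, and the closest were Plekhm1, Cacng7, Map3k11, Kansl1 and Cntn2 with r between 0.994 and 0.997. Their GC content was 50.8% to 61.3%, and each had its highest level in CON replicate 2. For Sncg, 63 genes (0.511%) had an r above 0.9. The closest were Ano6 (0.992), Sparc (0.983), Agt (0.974), Slc35e2 (0.971) and Scaf8 (0.969). As Sncg itself splits the groups, genes chosen for likeness to it split them too, and this is no finding. Sparc, a matrix glycoprotein of glia and vessels, stood at 23.5, 21.9 and 24.5 FPKM in PND and at 14.0, 14.8 and 17.3 FPKM in CON. Agt, angiotensinogen, was like Sncg one of the genes that the study took from these animals. The r between Sncb and Sncg was 0.13.

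The group differences of both genes were set against the way of processing. Sncg passed the cut-off, which uses the unadjusted p, in all 17 alternatives in which it was tested. Its log2 fold change lay between 1.28 and 4.08, and its adjusted p in limma was 0.605 or higher in each. Sncb passed in 0 of 18, and its log2 fold change lay between -0.13 and 0.31.

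**Figure D4:**
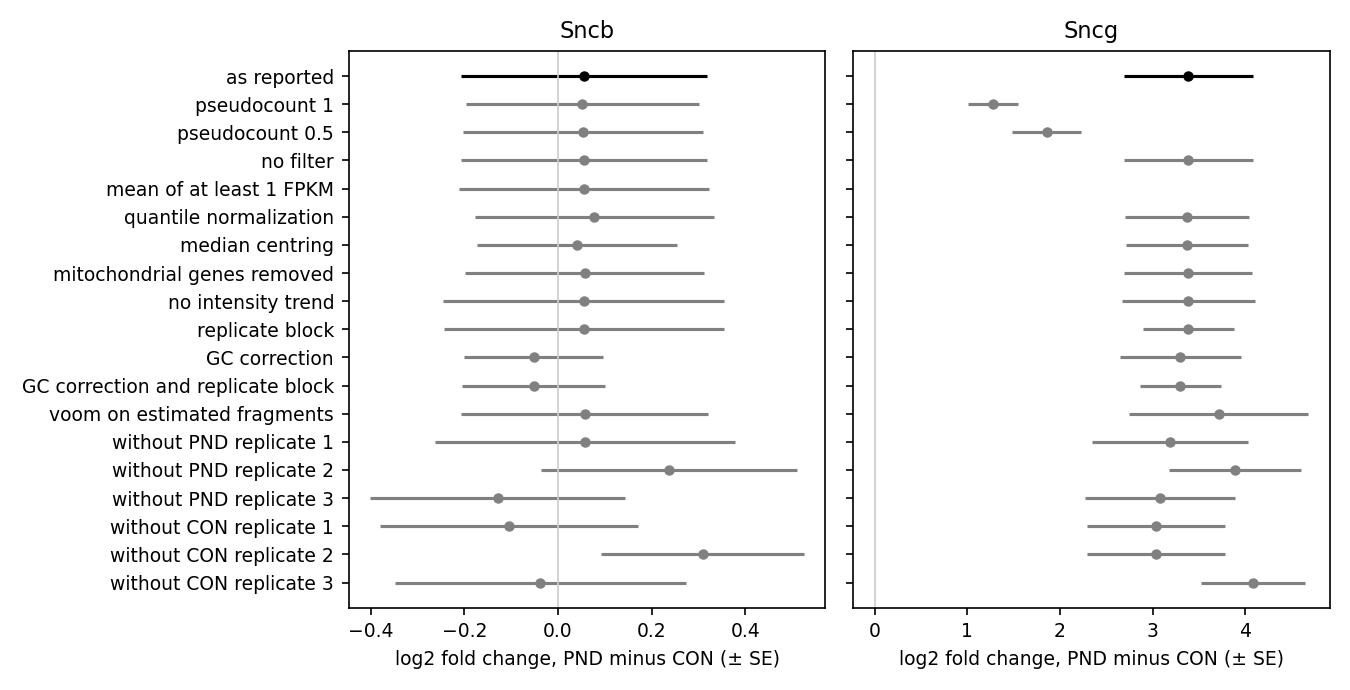
Log2 fold change (PND minus CON, bars of 1 SE) of Sncb and Sncg as reported (black) and under each alternative (grey). The Sncb values lie on both sides of 0, from -0.13 to 0.31, and those of Sncg between 1.28 with a pseudocount of 1 and 4.08 without CON replicate 3. Sncg has no point where a mean of at least 1 FPKM was required.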

How the data were processed

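Per the study's methods, ribosomal RNA was removed and the libraries were sequenced on an Illumina instrument. The authors filtered the reads with Seqtk, aligned them with HISAT2, counted fragments per gene with StringTie, scaled the samples by TMM and deposited FPKM, 1 column per animal. The build, annotation and use of strand for these values are not given in the sources used here, and the submitters' processing notes also list Bowtie, mm8 and mm9. Reads from the opposite strand could therefore not be told apart.

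Symbols were matched by identifier for 20866 of 21006 genes. GENCODE M21 (GRCm38) gave coordinates, exons, their lengths and GC content. The value of 1 fragment was the step of FPKM times exon length at low levels, and 41.5% to 44.7% of low values lay within 0.05 of a whole number. Exon lengths may differ from those of the authors, but why the other values lay farther off was not tested, and fragments are estimates. Differences were fitted with limma 3.58.1 (R 4.3.3), with eBayes and a trend on intensity, on log2(FPKM + 0.1) over 18185 genes whose mean reached 0.1 FPKM, with Benjamini-Hochberg adjustment over all of them and no covariate. Fold changes on this scale understate changes of low genes. The script was tested on simulated fragments. Coding sequences were aligned with Biopython 1.88.

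Groups came from the treatment labels and replicate numbers from the titles. The members and lists were chosen with earlier results of these data known. Named were both synucleins, in each of the 15 lists the genes past the cut-off or else the 2 with the smallest p, the 3 nearest genes on each side and the 5 genes most like each member. Some genes that this rule names are not reported here. Other genes were singled out after their values were seen. The alternatives changed the pseudocount, filter, scaling, trend, block, GC correction, test or samples.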

Additional observations from a re-analysis of the deposited data

How the results depend on the processing

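Under 18 alternatives Sncg kept its direction and passed the cut-off wherever it was tested. That cut-off uses the unadjusted p, and the adjusted p of Sncg in limma was 0.605 or higher throughout. Where the mean had to reach 1 FPKM Sncg was not tested, so 0 family members passed there and its ratio to Sncb has no value. Leaving out 1 animal gave 3.04 to 4.08 for the log2 fold change of Sncg, 2.73 to 4.12 for the difference of the log2 ratio of Sncg to Sncb and -0.13 to 0.31 for the log2 fold change of Sncb. Sncb changed sign in 5 alternatives and passed the cut-off in none of the 18. It was -0.052 with GC correction and -0.052 with GC correction and replicate block. It was -0.13 without PND replicate 3, -0.10 without CON replicate 1 and -0.04 without CON replicate 3. The cause was not tested. The 2 list genes past the cut-off became 0 with a pseudocount of 1 or 0.5 and 0 where the mean had to reach 1 FPKM, and 1 with GC correction and replicate block, where Krt73 had an unadjusted p of 0.0525. They numbered 1 to 5 when 1 animal was left out, with 1 without PND replicate 1, 4 without PND replicate 2 and 5 without CON replicate 3. Krt73 passed without PND replicate 3 and without CON replicate 1, but without any of the other animals its unadjusted p was 0.0557 to 0.0795.

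Replicate numbers are shared by the groups. The correlation of deviations between same-numbered samples was -0.049, -0.45 and 0.027, and 1 of 6 samples correlated best with its own number, so the numbers were not taken as pairs. With the replicate block the log2 ratio of Sncg to Sncb had an exact permutation p of 0.25, the smallest that 3 pairs allow. With the block in limma, Sncg had a log2 fold change of 3.39 (unadjusted p 0.000764, adjusted p 0.99999) and Sncb one of 0.06. With it, 226 genes passed the cut-off instead of 241. Over all genes, 25 passed with a pseudocount of 1, 59 with 0.5, 59 where the mean had to reach 1 FPKM and 388 without CON replicate 2. The depth limits Sncg, for which 1 fragment was worth 0.125 to 0.163 FPKM.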
